A study of Mus musculus with 15 samples.

Results

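Mouse neural progenitor cells that received the hairpin shLINE_Orf1 together with a LINE-1 element (shLINE_Orf1+LINE-1) were compared with cells that received the hairpin shLINE_Orf2, across all annotated genes. The comparison was chosen by the sample titles, with 3 libraries on each side, 6 of the 15 libraries of the series. All cells were wild type and were grown with FGF2, EGF and heparin. Plasmids with an shRNA, a short hairpin RNA that lowers RNAs of matching sequence, and with EGFP were delivered, and GFP-positive cells were collected by sorting after 3 days. Per the series' design text, the hairpins target young or old LINE-1, and the one against young LINE-1 was also given along with a LINE-1 of full length. The labels name no added LINE-1 for shLINE_Orf2 and do not say whether its hairpin is against young or old elements. The 2 groups thus differ both in the hairpin and in the added element, and the shares of these in any difference below cannot be told apart in this contrast alone. The other 9 libraries, 3 each of the control hairpin shControl, of shLINE_Orf1 without LINE-1 and of shLINE_MdV_I, entered the model and serve as reference levels. The labels do not say that replicates came from separate cultures, so the p-values rest on the spread between samples that may be technical repeats.

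LINE-1 elements are retrotransposons that copy themselves through an RNA intermediate. Their open reading frames encode an RNA-binding protein and a protein with endonuclease and reverse transcriptase activity. Neural progenitors are dividing cells that give rise to neurons and glia, and FGF2 and EGF keep them dividing in culture. Among the gene programmes described below, the hypoxia response is driven by the HIF transcription factors, which are stabilised when oxygen falls and switch on genes of blood vessel growth, glycolysis and collagen modification. The integrated stress response acts through the factor ATF4 on amino acid supply. Genes of the start of S phase are driven by E2F factors.

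The 6 libraries held between 45557580 and 51070479 gene counts. Mitochondrially encoded mRNAs took 1.42% to 1.97% of these. Spearman correlations between replicates were 0.994 to 0.996 in these groups. The replicates of shLINE_Orf2 differed more from each other than those of shLINE_Orf1+LINE-1, by a chi-square, divided by its degrees of freedom, of 16.1 to 37.3 against 7.32 to 10.6. In a principal component analysis of the 6 libraries the first component, with 30.1% of the variance, separated the groups. The second, with 20.1%, placed shLINE_Orf2 replicate 1 at -27.3 and replicate 3 at 32.0, and the 4 other libraries in between. RNA of LINE-1, of EGFP and of the plasmids was not analysed here, so the extent of knockdown and the level of the added LINE-1 were not measured. The cells expressed neural progenitor markers in both groups: the 28 measured markers summed to 13963 to 14634 CPM (counts relative to the scaled library size) in shLINE_Orf1+LINE-1 and to 13294 to 13816 CPM in shLINE_Orf2. Microglial markers summed to 33.9 to 35.7 against 35.4 to 36.7 CPM, with 7 of 15 under 0.1 CPM in the 6 libraries, Cx3cr1, Aif1 and C1qa among them. Endothelial and mural markers summed to 32.1 to 36.4 against 31.8 to 35.1 CPM. Of these, 5 of 14 were under 0.1 CPM, Cdh5 and Cldn5 among them, and 7 passed the filter for testing. Fibroblast markers summed to 44.5 to 56.1 against 54.8 to 68.4 CPM, with 3 of 10 under 0.1 CPM, Dcn and Lum among them, and 4 tested.

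Of 15141 genes tested, 36 were called, 12 higher and 24 lower in shLINE_Orf1+LINE-1 than in shLINE_Orf2 (edgeR's quasi-likelihood test on all 15 libraries, Benjamini-Hochberg adjusted p under 0.05). That is a background of 0.238% of genes, 0.0793% higher and 0.159% lower. At an unadjusted p under 0.05 there were 1363 genes. The lower genes included 7 of the hypoxia response, Ankrd37, P4ha2, Ndrg1, Vegfa, Selenbp1, Ddit4 and Stc2. The higher genes included the developmental transcription factor Gbx2, the calcium channel subunits Cacng5 and Tmem37, and Cdc6, which loads the replicative helicase onto DNA. Every one of the 36 had non-overlapping groups of libraries, as did 2040 genes with higher values (13.5%) and 1971 with lower values (13%) of all those tested.

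The number of genes called depended on which libraries entered the model. A model of only the 6 compared libraries called 1030 of 14528 genes (7.09%), 581 higher (4%) and 449 lower (3.09%). A model without shLINE_Orf1 replicate 1 and shControl replicate 2, 2 reference libraries that stand apart from the rest of the series, called 568 of 15398 genes (3.69%), 321 higher and 247 lower. Of the 36 genes, 34 were also called with the 6 libraries and 36 without those 2. The exceptions with the 6 libraries were Vegfa (adjusted p = 0.103) and Selenbp1 (adjusted p = 0.0566). In the model of all groups, leaving out shLINE_Orf1+LINE-1 replicate 1 or replicate 3 left no gene called, and leaving out its replicate 2 left Pdlim3 alone. Without shLINE_Orf2 replicate 1, Ankrd37, Pdlim3 and Rasl11a remained called, without its replicate 2 Ankrd37 and Pdlim3, and without its replicate 3 the count rose to 61. With the 6 libraries alone, leaving out each in turn gave 270 to 1362 genes, the lowest without shLINE_Orf2 replicate 2. Without replicates 1, 2 and 3 of shLINE_Orf2, 770, 167 and 485 genes were called higher and 592, 103 and 557 lower. Without those of shLINE_Orf1+LINE-1, the numbers were 172, 184 and 345 higher and 122, 122 and 337 lower. Counts of list members in such runs, given below, stand beside these totals and not beside the shares of the full model of 6 libraries. All 36 genes kept their direction in each of these runs.

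**Figure D1:**
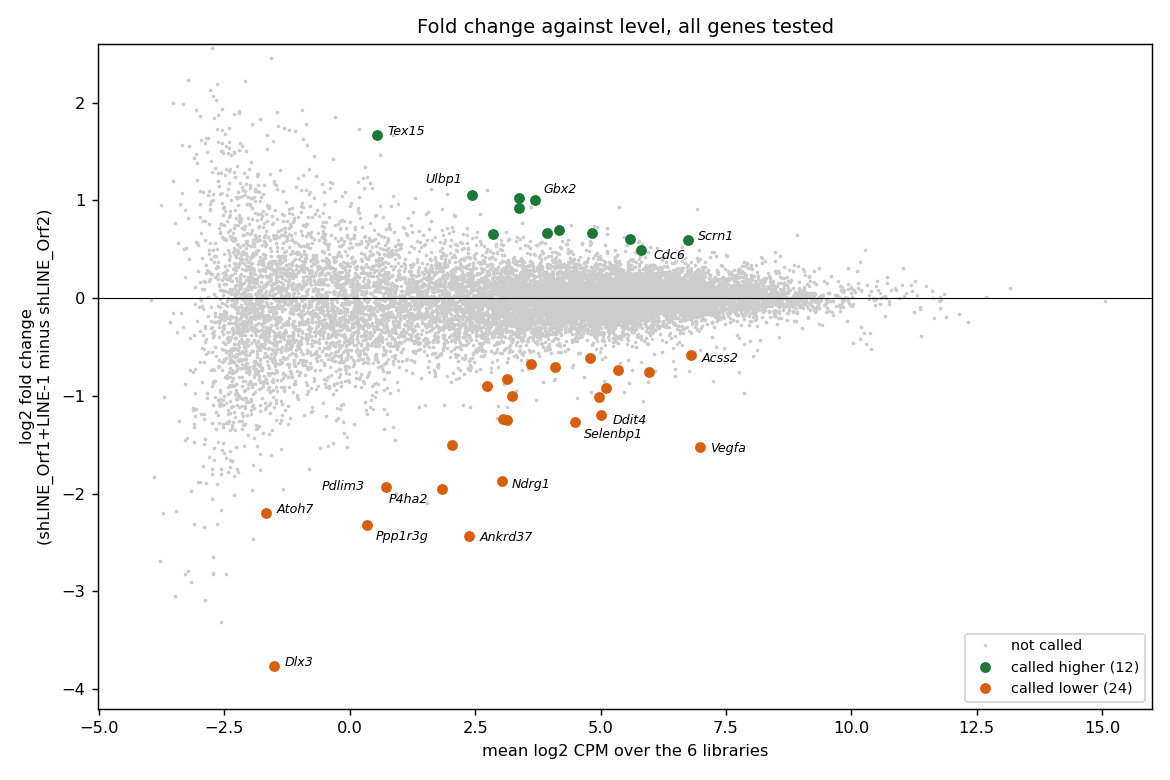
Log2 fold change of every gene tested (shLINE_Orf1+LINE-1 minus shLINE_Orf2, vertical axis) against its mean log2 CPM over the 6 libraries (horizontal axis). Grey points were not called, green points are the 12 genes called higher and orange points the 24 called lower, and 20 genes lie outside the range of the vertical axis. Vegfa lies far below 0 at a high level and Ankrd37 at a much lower level, while the genes called higher lie between 0.50 (Cdc6) and 1.67 (Tex15).

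Of 38 tested genes of the hypoxia list 7 fell and 31 did not pass the test. Vegfa, which encodes the main growth factor for blood vessels (chromosome 17, 46016993 to 46032369, GRCm38), was at 75.0, 78.2 and 77.1 CPM in the replicates of shLINE_Orf1+LINE-1 and at 323, 210 and 128 CPM in those of shLINE_Orf2. The groups did not overlap, the former lay close together, and the latter spread over a wide range, with replicate 1 highest. The log2 fold change was -1.52 ± 0.25 (SE; edgeR adjusted p = 0.0193). In the other 9 libraries Vegfa ranged from 112 to 196 CPM, so that the 3 libraries of shLINE_Orf1+LINE-1 were the lowest of the series. Ankrd37, an ankyrin repeat gene known as a hypoxia target (chromosome 8, 45996902 to 46005707), was at 1.84, 2.26 and 2.84 CPM against 18.7, 11.4 and 7.31 CPM. Its log2 fold change of -2.43 ± 0.33 was the largest among the named genes of this response (adjusted p = 0.0113), and the other 9 libraries were at 7.26 to 15.2 CPM, all above shLINE_Orf1+LINE-1. Exons of Ankrd37 share 57 bases with Ufsp2 and 259 with Lrp2bp on the other strand, and since the labels do not state whether strand was kept, its counts are uncertain to that extent.

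P4ha2, a subunit of the enzyme that hydroxylates collagen prolines, was at 2.39, 1.76 and 1.55 CPM against 11, 7.26 and 3.82 CPM (log2 fold change -1.95 ± 0.32, adjusted p = 0.0193). For this gene it was shLINE_Orf2 whose replicates 1 and 2 stood above all the rest, since the other 9 libraries were at 1.90 to 5.04 CPM. Ndrg1, a stress-induced gene of cell differentiation (chromosome 15, 66929318 to 66969640), was at 2.99, 4.45 and 6.01 against 23.8, 14.4 and 11 CPM (-1.87 ± 0.33, adjusted p = 0.0274). Its values in shLINE_Orf1+LINE-1 were below the 6.05 to 12.3 CPM of the other 9 libraries. Ddit4, an inhibitor of the growth kinase mTORC1, was at 18.3, 23.9 and 23.0 against 63.0, 48.1 and 37.4 CPM (-1.19 ± 0.19, adjusted p = 0.0193), with 30.1 to 49.8 CPM elsewhere. Selenbp1, a selenium-binding protein, was at 14.9, 15.3 and 14.4 against 50.1, 34.4 and 22.9 CPM (-1.27 ± 0.24, adjusted p = 0.034). Stc2, a secreted glycoprotein, was at 6.58, 6.17 and 7.15 against 14.6, 10.8 and 9.85 CPM (-0.83 ± 0.14, adjusted p = 0.0246). In each of these 7 genes the highest library of shLINE_Orf2 was replicate 1 and the lowest replicate 3, and replicate 3 still exceeded every library of shLINE_Orf1+LINE-1.

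**Figure D2:**
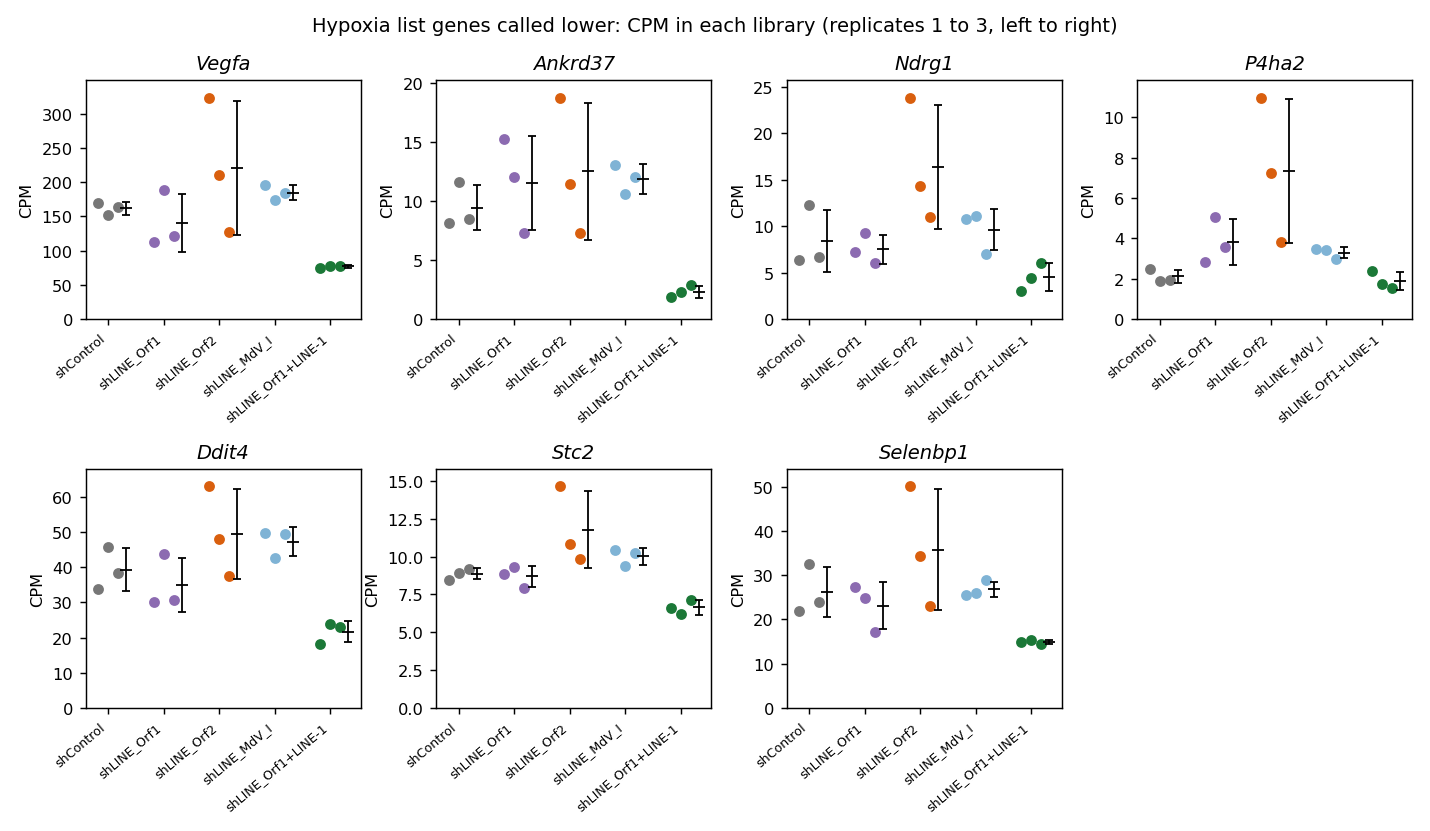
CPM (vertical axes, from 0) of the 7 genes of the hypoxia list that were called lower, in each of the 15 libraries by group. Points are replicates 1 to 3 from left to right, and the bar beside them is the mean ± SD. The 3 green points of shLINE_Orf1+LINE-1 lie below the orange points of shLINE_Orf2 in every panel, and replicate 1 is the highest orange point in each.

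Of the 38 genes of the hypoxia list that were tested, 7 were called lower and none higher, against 0.159% and 0.0793% of all genes. The list's log2 fold changes were negative for 34 and positive for 4 genes, with a median of -0.66 beside -0.01 over all genes. Libraries did not overlap for 22 genes with lower and 1 with higher values in shLINE_Orf1+LINE-1 (13% and 13.5% of all genes). Among genes that were not called, the glycolytic regulator Pfkfb3 was at 15.3 to 17.5 against 23.0 to 44.5 CPM (log2 fold change -1.03 ± 0.20, adjusted p = 0.0529). The mitophagy receptor Bnip3 was at 157 to 182 against 223 to 445 CPM (-0.97 ± 0.22, adjusted p = 0.0939). The histone demethylase Kdm3a and the Myc antagonist Mxi1 had log2 fold changes of -0.75 ± 0.17 and -0.62 ± 0.14 (both adjusted p = 0.0874). The mRNA of the oxygen-regulated factor Hif1a itself had overlapping values, 161 to 184 against 170 to 190 CPM (-0.03 ± 0.13). These genes, like others given below as not called, were chosen with their values in view.

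The replicates of shLINE_Orf2 differed widely in this list. The mean log2 CPM of the list, relative to its mean over the 6 libraries, was -0.29, -0.34 and -0.32 in shLINE_Orf1+LINE-1 and 0.70, 0.32 and -0.07 in shLINE_Orf2, with -0.13 to 0.24 in the other 9 libraries. All 3 libraries of shLINE_Orf1+LINE-1 were thus below the 12 others, and replicates 1 and 2 of shLINE_Orf2 above all others. Without shLINE_Orf2 replicate 1 the median log2 fold change was -0.38, and without its replicate 3 it was -0.83. In the model of 6 libraries, 10 of 37 list genes were called lower and 1 higher, Mt3, a metallothionein (3.09% and 4% of all genes). Leaving out 1 of the 6 gave 2 genes called lower without shLINE_Orf2 replicate 2 or without replicate 1 or 2 of shLINE_Orf1+LINE-1, 3 without replicate 3 of the latter, and 14 and 29 without replicates 1 and 3 of shLINE_Orf2. Over all genes these runs called, in the same order, 103, 122, 122, 337, 592 and 557 lower, of 14737 to 14846 tested. Without the 2 reference libraries that stand apart, 17 of 38 were called lower and none higher (1.6% and 2.08% of all genes).

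The core of the DNA site of HIF factors, ACGTG, was looked for on both strands of the 250 bases before the RefSeq start of each gene (GRCm38.p6). It was present for 14 of 29 hypoxia list genes with a promoter in that table (48.3%) and in 21.2% of 11214 promoters of tested genes. Among the 6 called members with a promoter there it was present for 4. Windows of 4 called genes are shown, less any stretch in an annotated exon, 5′ to 3′ along the gene's strand and with matches in capitals. Ankrd37, Ddit4 and P4ha2 hold a match in the stretch shown, and Vegfa holds none in its window.
Ankrd37, chr8:45999868-46000100, minus strand: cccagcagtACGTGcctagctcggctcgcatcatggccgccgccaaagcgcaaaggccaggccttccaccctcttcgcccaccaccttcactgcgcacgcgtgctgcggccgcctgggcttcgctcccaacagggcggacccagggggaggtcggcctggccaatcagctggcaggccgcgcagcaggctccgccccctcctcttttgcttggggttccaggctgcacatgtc
Ddit4, chr10:59951835-59952020, minus strand: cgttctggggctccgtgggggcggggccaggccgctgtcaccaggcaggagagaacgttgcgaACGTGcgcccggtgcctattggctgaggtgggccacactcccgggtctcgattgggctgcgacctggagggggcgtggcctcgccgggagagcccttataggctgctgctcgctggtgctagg
P4ha2, chr11:54100674-54100923, plus strand: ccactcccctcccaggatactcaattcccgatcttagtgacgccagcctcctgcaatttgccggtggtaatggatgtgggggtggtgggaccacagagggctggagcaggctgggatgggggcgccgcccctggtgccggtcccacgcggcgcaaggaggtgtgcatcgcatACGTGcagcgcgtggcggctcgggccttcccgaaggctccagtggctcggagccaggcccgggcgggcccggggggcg
Vegfa, chr17:46032378-46032627, minus strand: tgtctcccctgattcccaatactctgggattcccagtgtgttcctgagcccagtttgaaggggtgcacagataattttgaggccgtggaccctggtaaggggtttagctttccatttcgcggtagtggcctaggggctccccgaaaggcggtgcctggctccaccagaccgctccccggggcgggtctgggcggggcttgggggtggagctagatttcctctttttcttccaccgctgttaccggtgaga
Matches began 241 bases before the start in Ankrd37, which has another in the exonic stretch left out, 187 in Ddit4 and 78 in P4ha2. The RefSeq start of Ankrd37 lies 5857 bases inside the gene's outermost GENCODE start, and that of P4ha2 829 bases inside. A match describes these letters and shows no binding. The lists were put together by programme, so shares of sites in them, here and below, describe the lists and not the contrast.

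Genes of glycolysis, which turns glucose into pyruvate, had mostly lower values, and none was called. The 25 tested genes of the list, 2 of them with the symbol Aldoa, had 22 negative and 3 positive log2 fold changes and a median of -0.23. Hk2, a hexokinase, the enzyme of the first step, was at 9.66, 8.96 and 9.15 CPM against 24.4, 19.9 and 12.7 CPM (log2 fold change -1.04 ± 0.29, adjusted p = 0.179). Pgk1, phosphoglycerate kinase, was at 999.6 to 1008 against 1144 to 1588 CPM (-0.41 ± 0.12, adjusted p = 0.195). The glucose transporter Slc2a3 was at 32.2 to 34.2 against 38.7 to 94.4 CPM (-0.96 ± 0.26, adjusted p = 0.168), while its relative Slc2a1 overlapped between the groups (71.4 to 72.3 against 71.7 to 173 CPM). In the list mean, shLINE_Orf2 replicate 1 was at 0.43 and replicate 2 at 0.12, while replicate 3, at -0.07, lay among the other 9 libraries (-0.14 to 0.08). In the model of 6 libraries 5 of 25 genes were called lower (3.09% of all genes), Hk2, Pgk1 and Pgam1 among them, and 11 without shLINE_Orf2 replicate 3. None was called in that model without shLINE_Orf2 replicate 2 or without any 1 library of shLINE_Orf1+LINE-1. The lists share Slc2a1 and Slc2a3.

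Genes of the integrated stress response were lower for 3 of 40 members tested, Ddit4, Stc2 and Vldlr, and higher for none (0.159% and 0.0793% of all genes). Ddit4 and Stc2 also stand in the hypoxia list. Vldlr, a receptor for reelin and lipoproteins (chromosome 19, 27216484 to 27254231), was at 49.7, 46.8 and 47.6 CPM against 94.1, 79.2 and 69.5 CPM (log2 fold change -0.75 ± 0.12, adjusted p = 0.0193). The contrast of shLINE_Orf1+LINE-1 with shLINE_Orf1 was -0.05 ± 0.12, and that of shLINE_Orf1 with shLINE_Orf2 was -0.70 ± 0.12. Over the list, 30 log2 fold changes were negative and 10 positive, with a median of -0.15, and the libraries did not overlap for 23 genes with lower and 2 with higher values (13% and 13.5% of all genes). The list means were -0.13 to -0.06 in shLINE_Orf1+LINE-1 and 0.06 to 0.13 in shLINE_Orf2. Both lay inside the range of the other libraries of the series, -0.16 to 0.17. The amino acid transporter Slc7a3 was at 9.27, 9.12 and 9.04 CPM against 14.2, 14.8 and 16.2 CPM (-0.72 ± 0.18, adjusted p = 0.114). Asparagine synthetase, Asns, was at 182 to 190 against 224 to 259 CPM (-0.38 ± 0.11, adjusted p = 0.205), and the pseudokinase Trib3 at 4.83 to 6.89 against 8.59 to 11.8 CPM (-0.71 ± 0.21, adjusted p = 0.226). For these 3 genes replicate 3 was the highest of shLINE_Orf2, unlike in the genes of the hypoxia list above. The mRNA of Atf4 itself overlapped (162 to 174 against 158 to 187 CPM). Counted with the 6 libraries alone, 12 of 40 members were called lower and 1 higher (3.09% and 4% of all genes), and leaving out 1 of the 6 gave 5 to 12 called lower, the fewest without shLINE_Orf1+LINE-1 replicate 1. The letters TGATGNAA, the core of sites bound by ATF4 with its partners, were in 9 of 33 promoters of the list (27.3%) and in 2.13% of all, but in none of those of the 3 called members.

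Genes of the start of S phase and of DNA replication had higher values, 1 of 67 passing the test (0.0793% of all genes were called higher). Cdc6 (chromosome 11, 98907801 to 98923940) was at 68.6, 66.0 and 63.9 CPM in shLINE_Orf1+LINE-1 and at 47.1, 44.6 and 49.0 CPM in shLINE_Orf2. These groups did not overlap, and the other 9 libraries, at 46.8 to 60.8 CPM, lay below the former. The log2 fold change was 0.50 ± 0.09 (adjusted p = 0.0298). Over the list 62 log2 fold changes were positive and 5 negative, with a median of 0.20, and the libraries did not overlap for 44 genes with higher and for none with lower values (13.5% and 13% of all genes). The helicase subunits Mcm2, Mcm3, Mcm5 and Mcm7 had log2 fold changes of 0.35, 0.34, 0.37 and 0.34 and none was called. Mcm2 was at 278, 270 and 270 CPM against 218, 204 and 218 CPM (0.35 ± 0.12, adjusted p = 0.301), and the other 9 libraries, at 179 to 258 CPM, were below all of the former. The replication licensing factor Cdt1 was at 57.8 to 64.0 against 41.1 to 47.2 CPM (0.47 ± 0.15, adjusted p = 0.286), the chromatin assembly subunit Chaf1b at 117 to 122 against 85.8 to 95.7 CPM (0.42 ± 0.10, adjusted p = 0.125), and cyclin E1, Ccne1, at 93.3 to 101 against 71.8 to 81.2 CPM (0.36 ± 0.08, adjusted p = 0.103).

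The list mean was at 0.10, 0.10 and 0.11 in shLINE_Orf1+LINE-1, at -0.15, -0.10 and -0.05 in shLINE_Orf2 and at -0.08 to 0.08 in the other 9 libraries. The 3 libraries of shLINE_Orf1+LINE-1 were the highest of the 15. With the 6 libraries alone 23 of 67 members were called higher and none lower (4% and 3.09% of all genes), and leaving out 1 of the 6 gave 12 to 30 called higher, the fewest without shLINE_Orf2 replicate 2. Without the 2 reference libraries that stand apart, 16 were called higher and none lower (2.08% and 1.6% of all genes). Of 72 tested genes of G2 phase and mitosis 54 had negative and 18 positive log2 fold changes, with a median of -0.08, and none was called. The model of 6 libraries called 7 lower, the condensin subunit Ncapg (73.0 to 83.2 against 94.9 to 110 CPM) and the kinetochore kinase Bub1 (68.4 to 72.5 against 83.0 to 92.4 CPM) among them (3.09% of all genes), and 1 to 14 when 1 library was left out, the fewest without shLINE_Orf2 replicate 2 or without replicate 1 or 2 of shLINE_Orf1+LINE-1. The proliferation marker Mki67 overlapped widely, at 64.3, 77.1 and 116 against 114, 70.2 and 78.2 CPM. Cep55, which acts in the last step of cell division and is in neither list, fell, to 32.1, 32.1 and 30.3 CPM from the 52.5, 55.4 and 49.4 CPM of shLINE_Orf2 (-0.74 ± 0.11, adjusted p = 0.016).

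The E2F letters TTTNNCGC, read on both strands, were in 14 of 52 promoters of the S phase list (26.9%) and in 6.93% of all promoters. Cdc6 holds a match, on the opposite strand, 138 bases before its RefSeq start, which lies 350 bases inside the GENCODE gene. Isg15, an interferon-induced gene described below, holds 4 matches to AANNGAAA, 3 of them overlapping, the core letters of sites bound by interferon regulatory factors.
Cdc6, chr11:98907982-98908150, plus strand: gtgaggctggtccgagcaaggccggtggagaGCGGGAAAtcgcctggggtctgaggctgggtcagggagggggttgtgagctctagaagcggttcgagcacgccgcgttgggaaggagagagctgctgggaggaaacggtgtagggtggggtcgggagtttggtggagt
Isg15, chr4:156200819-156201068, minus strand: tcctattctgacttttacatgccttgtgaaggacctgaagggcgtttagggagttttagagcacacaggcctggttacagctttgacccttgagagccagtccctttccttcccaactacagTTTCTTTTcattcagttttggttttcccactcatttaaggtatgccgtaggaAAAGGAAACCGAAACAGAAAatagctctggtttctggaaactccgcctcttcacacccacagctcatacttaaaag
AANNGAAA was in 24 of 42 promoters of the interferon list (57.1%) and in 16.3% of all promoters.

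**Figure D3:**
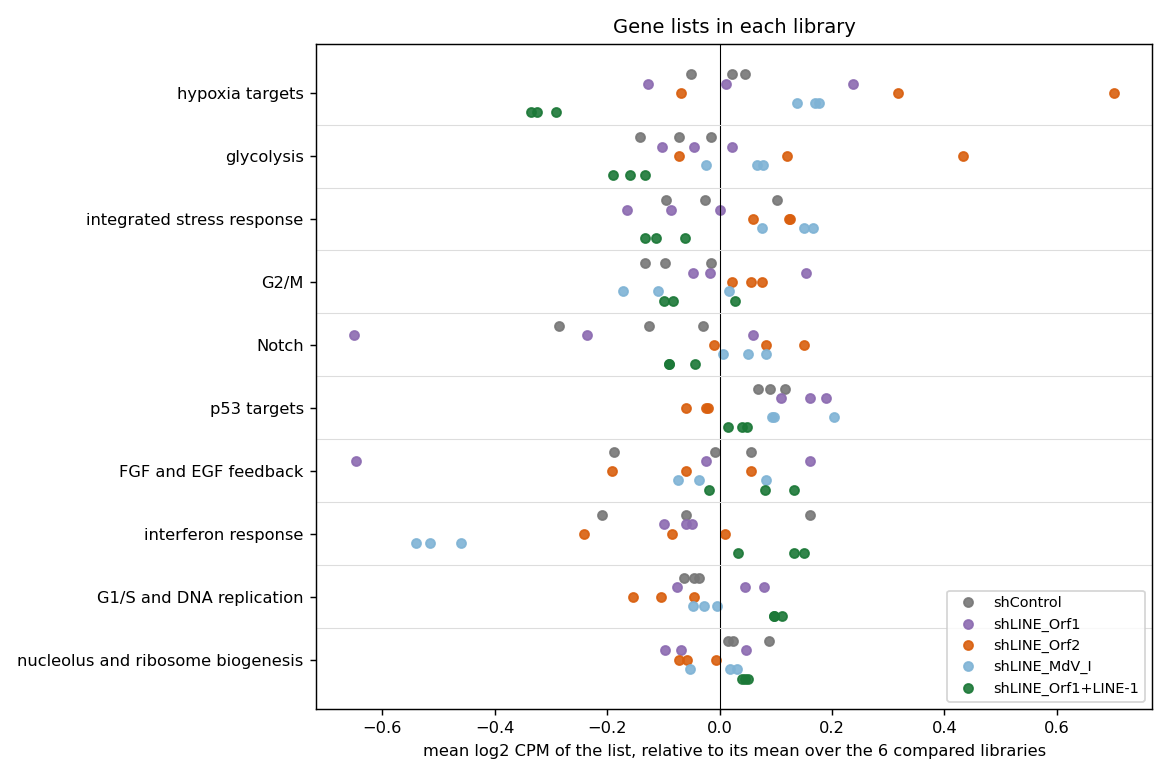
Mean log2 CPM of 10 gene lists in each of the 15 libraries, relative to the list's mean over the 6 compared libraries (horizontal axis), with a row for each list and a colour for each group. Green points are shLINE_Orf1+LINE-1 and orange points shLINE_Orf2. In the hypoxia row the green points lie at -0.34 to -0.29, left of all others, and in the row of G1/S and DNA replication at 0.10 to 0.11, right of all others.

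Interferon-induced genes, which defend cells against viruses and can respond to nucleic acids of retroelements, had higher values and none was called. Of 56 tested, 47 had positive and 9 negative log2 fold changes, with a median of 0.20, and the libraries did not overlap for 20 with higher and none with lower values (13.5% and 13% of all genes). Isg15, a ubiquitin-like modifier, was at 68.5, 64.9 and 61.9 CPM against 44.6, 42.7 and 44.1 CPM (log2 fold change 0.57 ± 0.13, adjusted p = 0.081), above the 32.9 to 58.6 CPM of the other 9 libraries. The chemokine Cxcl10 was at 123, 118 and 115 CPM against 80.3, 76.4 and 91.6 CPM (0.52 ± 0.11, adjusted p = 0.0624), with 78.0 to 102 CPM elsewhere. In the model of 6 libraries 11 of 56 were called higher and none lower (4% and 3.09% of all genes), among them Isg15, Cxcl10, Rtp4, Irgm1 and Bst2. Leaving out 1 of the 6 gave 3 to 15 called higher, the fewest without shLINE_Orf1+LINE-1 replicate 1. In the list mean shLINE_Orf1+LINE-1 was at 0.03 to 0.15 and shLINE_Orf2 at -0.24 to 0.01, inside the range of the other libraries (-0.54 to 0.16), whose lowest were those of shLINE_MdV_I.

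Among the other genes that rose, Scrn1, secernin, had the smallest adjusted p of the genes called higher (chromosome 6, 54501173 to 54566489). It was at 132, 133 and 127 CPM in shLINE_Orf1+LINE-1 and at 88.5, 85.8 and 85.9 CPM in shLINE_Orf2, with 95.1 to 117 CPM in the other 9 libraries. The 2 groups thus formed the top and the bottom of the series (log2 fold change 0.59 ± 0.08, adjusted p = 0.0113). Gbx2, a homeobox factor of the midbrain and hindbrain border (chromosome 1, 89927956 to 89931179), was at 17.4, 19.4 and 18 against 8.31, 9.61 and 9.37 CPM (1.0 ± 0.16, adjusted p = 0.0193), with 8.44 to 14.5 CPM elsewhere. Cacng5, an auxiliary subunit of AMPA receptors and calcium channels, was at 15, 14.3 and 15 against 7.60, 7.34 and 6.84 CPM (1.02 ± 0.17, adjusted p = 0.0193), and shLINE_Orf1+LINE-1 was again above and shLINE_Orf2 below the 8.26 to 14.2 CPM of the others. Tmem37, a calcium channel gamma-like protein, was at 14.3, 14 and 14.2 against 7.96, 7.20 and 7.29 CPM (0.92 ± 0.13, adjusted p = 0.016). Here shLINE_Orf1 without LINE-1 was equally high: the contrast of shLINE_Orf1+LINE-1 with it was 0.05 ± 0.13.

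The anion exchanger Slc4a2 rose by 0.70 ± 0.11 on the log2 scale, although 817 bases of its exons overlap Fastk. The glycerol phosphate dehydrogenase Gpd1 was at 33.9 to 37.9 against 22.1 to 23.4 CPM (0.67 ± 0.11, adjusted p = 0.0216), the septin Sept4 at 18.7 to 19.7 against 11.6 to 12.9 CPM (0.66 ± 0.12, adjusted p = 0.0246), and the small GTPase Rasl11a at 55.8 to 62.1 against 34.8 to 47.3 CPM (0.60 ± 0.11, adjusted p = 0.031). These 3 were close to shLINE_Orf1 without LINE-1, with contrasts of 0.20, -0.10 and 0.05.

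**Figure D4:**
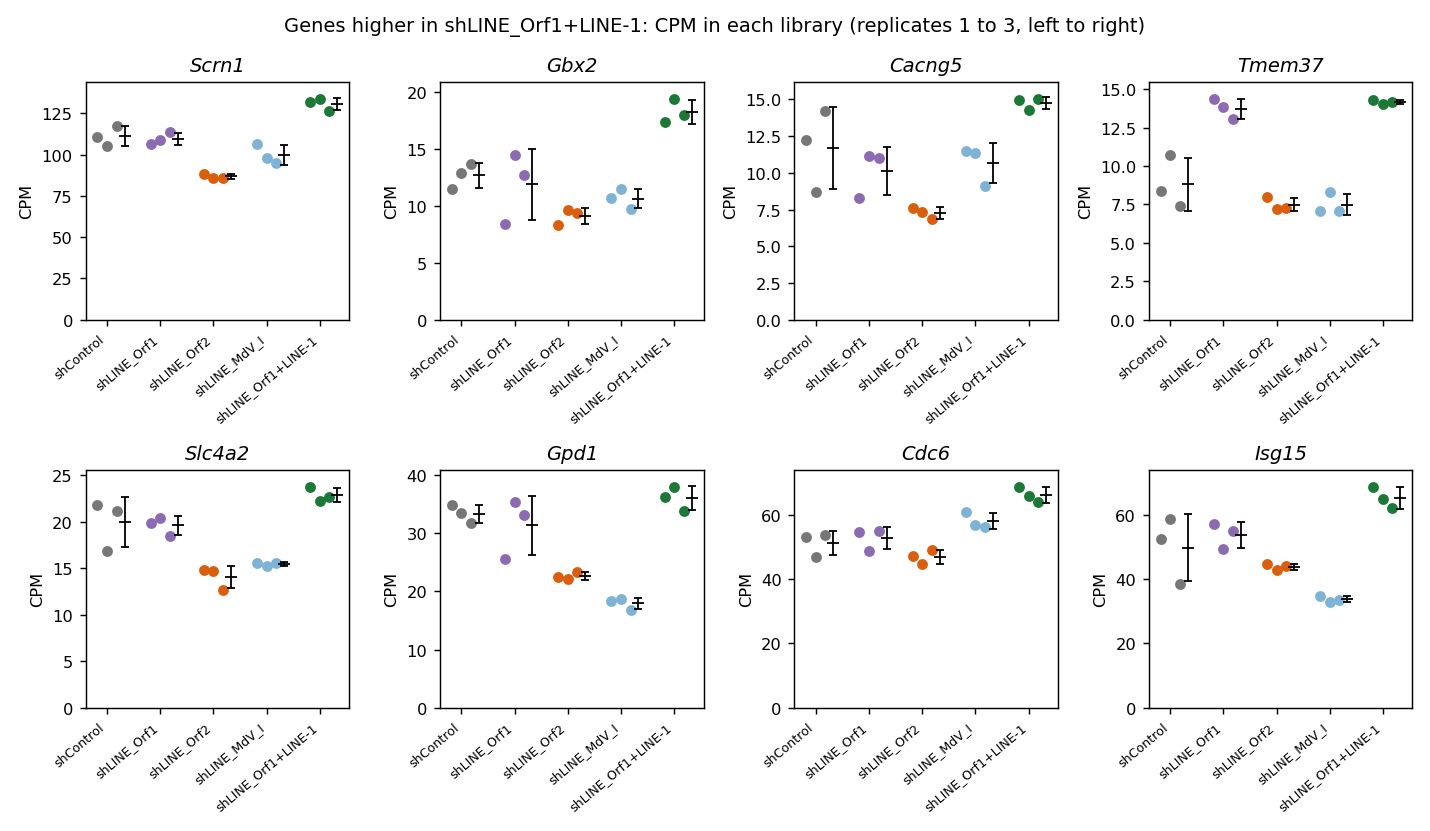
CPM (vertical axes, from 0) of 7 genes called higher and of Isg15, which was not called, in each of the 15 libraries by group. Points are replicates 1 to 3 from left to right, and the bar beside them is the mean ± SD. Green points of shLINE_Orf1+LINE-1 lie above orange points of shLINE_Orf2 in every panel, and for Tmem37 the purple points of shLINE_Orf1 lie at the level of the green ones.

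Further genes fell outside the lists. Narf, a nuclear protein that binds prelamin A, was at 21, 24 and 21.4 against 50.6, 50.2 and 33.2 CPM (log2 fold change -1.01 ± 0.15, adjusted p = 0.0161), below the 26.7 to 41.6 CPM of the other 9 libraries. Ciart, a repressor in the circadian clock, was at 5.15, 6.77 and 5.60 against 19.5, 12.8 and 9.35 CPM (-1.25 ± 0.22, adjusted p = 0.0284), with 9.06 to 13.8 CPM elsewhere. The non-coding RNA host gene Snhg11 was at 7.88, 6.27 and 5.94 against 12.3, 16.2 and 11.7 CPM (-1.0 ± 0.16, adjusted p = 0.0193). For these genes shLINE_Orf1+LINE-1 was the lowest group of the series. Rcor2, a cofactor of the histone demethylase LSD1 in neural stem cells, was at 25.1, 27.1 and 24 CPM against 61.1, 46.9 and 36.7 CPM (-0.92 ± 0.18, adjusted p = 0.0443). With 22.0 to 42.5 CPM elsewhere, replicates 1 and 2 of shLINE_Orf2 were the highest of the series. Abhd18, a predicted hydrolase, fell by 1.23 ± 0.23 on the log2 scale, with exons that overlap Gm2011. Acss2, which makes acetyl-CoA from acetate and is the 1 member of the cholesterol synthesis list called, was at 94.8, 91.2 and 89.2 against 158, 132 and 121 CPM (-0.58 ± 0.10, adjusted p = 0.0193). The rest of that list of 30 went both ways, with a median of -0.03, and Acss2 shares exonic bases with Ggt7 and Gss. With the 6 libraries alone 7 of the 30 were called lower and 3 higher (3.09% and 4% of all genes). Without shLINE_Orf2 replicate 2 that model called 1 lower and 1 higher, beside 103 and 167 of 14737 genes.

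Whether the added LINE-1 or the hairpin went with a difference can be read only from contrasts that share libraries with the one above, so their values are given side by side. The contrast of shLINE_Orf1+LINE-1 with shLINE_Orf1 had no gene called (0%; 1681 at an unadjusted p under 0.05, edgeR), and so had that of shLINE_Orf1 with shLINE_Orf2 (0%; 1729 unadjusted). Without the 2 libraries that stand apart, 1 of which is shLINE_Orf1 replicate 1, the former still had none (958 unadjusted) and the latter 24 (0.156%; 17 higher and 7 lower). With all 15 libraries, Ankrd37 had log2 fold changes of -2.31 ± 0.33 and -0.12 ± 0.30 in these contrasts, Ciart -0.96 ± 0.22 and -0.29 ± 0.22, and Narf -0.78 ± 0.15 and -0.23 ± 0.15. Vegfa had -0.87 ± 0.25 and -0.65 ± 0.25, and P4ha2 -1.0 ± 0.32 and -0.95 ± 0.31. Ndrg1 had -0.74 ± 0.33 and -1.13 ± 0.32. Rcor2 and Acss2 had -0.18 ± 0.18 and -0.03 ± 0.10 in the first and -0.74 ± 0.18 and -0.55 ± 0.10 in the second. Against shControl, shLINE_Orf1+LINE-1 had 21 genes called (0.139%; 11 higher and 10 lower) and shLINE_Orf2 had 29 (0.192%; 12 and 17), with 353 (2.29%) and 272 (1.77%) without the 2 libraries. Vegfa was at -1.07 and 0.45 on the log2 scale in these 2 contrasts. Over the 24 genes that were lower, the libraries of shLINE_Orf1+LINE-1 were below all 9 of the other groups for 14, and those of shLINE_Orf2 above all 9 for 1. Over the 12 genes that were higher, shLINE_Orf1+LINE-1 was above all 9 for 6 and shLINE_Orf2 below all 9 for 5.

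None of the genes of growth factor and Notch signalling was called. Of 25 tested genes of FGF and EGF feedback, 17 had positive log2 fold changes and the median was 0.20. The list means of the groups overlapped, at -0.02 to 0.13 in shLINE_Orf1+LINE-1 and -0.19 to 0.06 in shLINE_Orf2. Dusp6, a phosphatase that FGF signalling induces to limit itself, was at 626, 614 and 592 CPM against 442, 370 and 355 CPM (0.65 ± 0.15, adjusted p = 0.0899). The immediate early factor Egr1 was at 180, 164 and 158 CPM against 114, 78.9 and 74.8 CPM (0.91 ± 0.34, adjusted p = 0.385), and all 9 other libraries were below 126 CPM. The list of immediate early genes went both ways: of 33 tested, 16 were positive and 17 negative, with a median of -0.0057, and none was called. With the 6 libraries alone 6 of 24 genes of FGF and EGF feedback were called higher (4% of all genes), cyclin D1 (Ccnd1) and the receptor Fgfr2 among them. When 1 library was left out, 2 to 11 feedback genes were called higher, the most without shLINE_Orf2 replicate 1. Of 23 Notch genes 16 had negative log2 fold changes, with a median of -0.17. The target Nrarp was at 26.2, 29.2 and 31.0 against 42.3, 41.4 and 36.8 CPM (-0.48 ± 0.12, adjusted p = 0.128) and the target Hey1 at 25.5 to 26.5 against 32.3 to 35.7 CPM (-0.37 ± 0.10, adjusted p = 0.148), while the receptor Notch2 was at 15.1 to 21.0 against 11.4 to 12.8 CPM (0.56 ± 0.30). In the model of 6 libraries 6 Notch genes were called lower and 3 higher (3.09% and 4% of all genes), and without shLINE_Orf2 replicate 2 these were 1 and none.

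Targets of p53, extracellular matrix genes and genes of ribosome biogenesis had mostly positive values. Of 40 p53 targets 26 were positive, with a median of 0.11, and Ddit4 was the only one called, lower. In the mean of the p53 list shLINE_Orf1+LINE-1 was at 0.02 to 0.05 and shLINE_Orf2 at -0.06 to -0.02. Both groups were below all of the other 9 libraries, which were at 0.07 to 0.20. Pmaip1, a gene of apoptosis, was at 23.3 to 25.9 against 16.5 to 18.9 CPM (0.47 ± 0.11, adjusted p = 0.113). The model of 6 libraries called 7 higher and 1 lower (4% and 3.09% of all genes), and 2 to 9 higher when 1 library was left out, the fewest without shLINE_Orf2 replicate 2 or shLINE_Orf1+LINE-1 replicate 1. Of 54 matrix and integrin genes 42 were positive (median 0.18). Their list means overlapped, at 0.0011 to 0.16 in shLINE_Orf1+LINE-1 and -0.16 to 0.07 in shLINE_Orf2. The model of 6 libraries called 11 of the 54 higher and 1 lower (4% and 3.09% of all genes). Calls higher ranged from 5 without shLINE_Orf2 replicate 2 to 18 without its replicate 1. The basement membrane collagen Col18a1 was at 59.9, 60.5 and 52.2 CPM against 36.2, 29.9 and 24.7 CPM (0.93 ± 0.20, adjusted p = 0.0817), and the other 9 libraries spanned both groups, from 25.3 to 66.6 CPM. Of 76 nucleolar genes 56 were positive, with a median of 0.09, and 9 were called higher with the 6 libraries (4% of all genes), from 1 without shLINE_Orf1+LINE-1 replicate 1 to 13 without shLINE_Orf2 replicate 1.

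**Figure D5:**
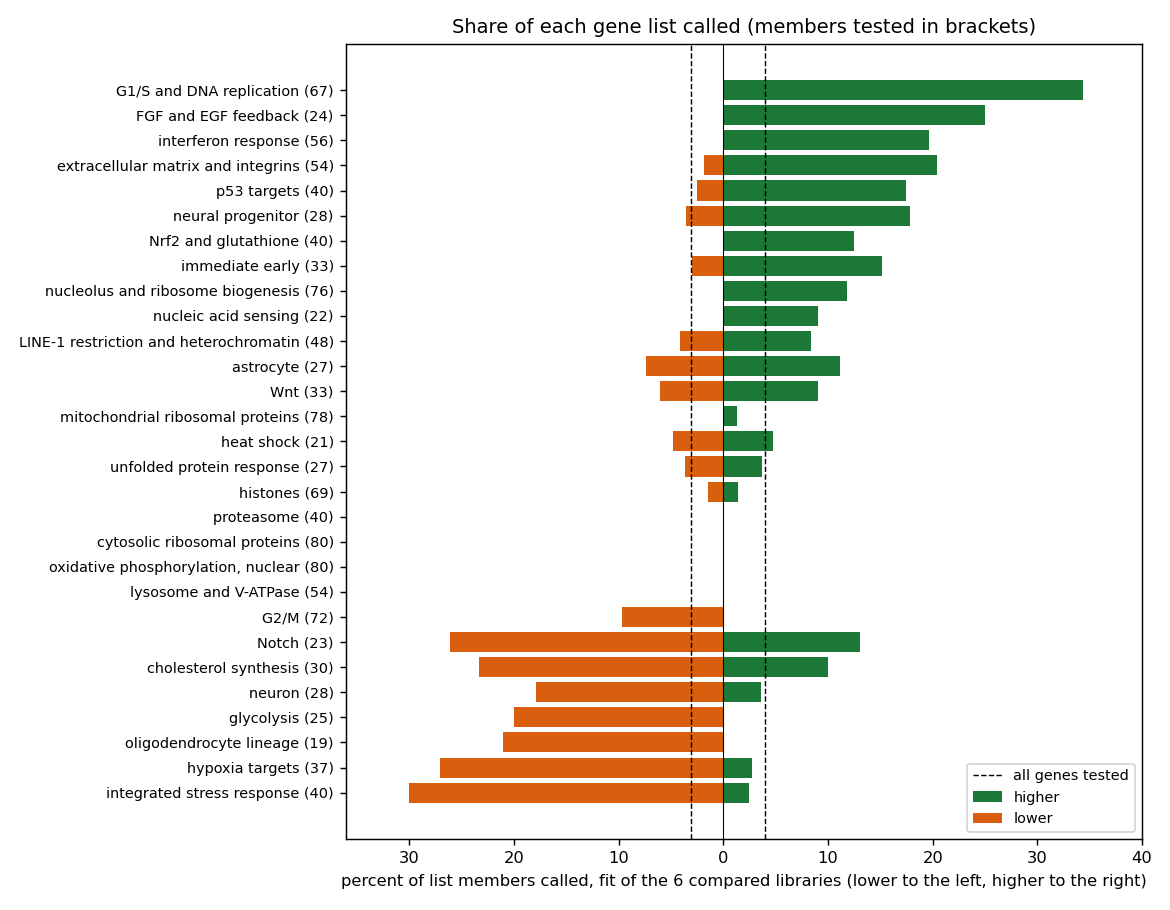
Percent of the members of gene lists called by edgeR in the model of the 6 compared libraries, higher to the right in green and lower to the left in orange, with the number tested in brackets. Lists with fewer than 19 genes tested are not drawn (microglia, endothelial and mural, fibroblast and meninges, mitochondrially encoded). Dashed lines give the share of all genes, 4% higher and 3.09% lower. The bars of hypoxia targets and of the integrated stress response reach farthest to the left, and that of G1/S and DNA replication farthest to the right.

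No marker of cell identity was called. Of 28 progenitor markers 5 were called higher and 1 lower with the 6 libraries alone (4% and 3.09% of all genes), 1 and none without shLINE_Orf2 replicate 2, and none without shLINE_Orf1+LINE-1 replicate 2. Sox2 was at 170 to 178 against 195 to 202 CPM (log2 fold change -0.18 ± 0.11), Olig2 at 820 to 863 against 802 to 851 CPM (0.02 ± 0.17), and Nes at 297 to 336 against 276 to 300 CPM (0.18 ± 0.21). Of 21 tested genes of the oligodendrocyte lineage 14 had negative and 7 positive log2 fold changes, with a median of -0.07, and the summed level of the list overlapped, at 3342 to 3542 against 3348 to 3467 CPM. With the 6 libraries alone 4 of 19 were called lower and none higher (3.09% and 4% of all genes). Without shLINE_Orf2 replicate 2 these were 2 lower, beside 103 of 14737 genes. Sox10, a factor of early lineage cells, was at 3.65, 3.10 and 3.08 CPM against 7.53, 7.72 and 5.71 CPM (-1.09 ± 0.22, adjusted p = 0.0534). The precursor receptor Pdgfra was at 11.5, 10.3 and 10.4 CPM against 20.7, 19.7 and 18 CPM (-0.86 ± 0.24, adjusted p = 0.175). Both had non-overlapping groups, and the other 9 libraries spanned them, at 2.76 to 8.41 and 5.57 to 26.9 CPM. Fewer cells of a type and less RNA per cell cannot be told apart in these bulk samples. Of 30 neuronal genes 17 were negative and 13 positive, with a median of -0.04, and with the 6 libraries alone 5 of 28 were called lower and 1 higher (3.09% and 4% of all genes). The summed level of the neuronal list did not overlap, at 1447 to 1488 against 1519 to 1630 CPM. The neuronal genes Mapt, a microtubule-associated protein, and Sox4 had log2 fold changes of -0.49 ± 0.12 and -0.43 ± 0.16 and were not called. Of 27 astrocyte genes 17 were positive and 10 negative, with a median of 0.02. Their summed level did not overlap either, at 7750 to 8072 against 7274 to 7580 CPM. The mean log2 CPM of the list, relative to its mean over the 6 libraries, did overlap, at -0.02 to 0.03 against -0.06 to 0.04. Slc1a3, Sox9 and Vim stand in both the astrocyte and the progenitor list. With the 6 libraries alone 3 astrocyte genes were called higher and 2 lower (4% and 3.09% of all genes). None was called in that model without replicate 2 of shLINE_Orf2 or without replicate 2 of shLINE_Orf1+LINE-1. Lists with no member called, also with the 6 libraries alone, included those of nuclear oxidative phosphorylation genes (80 tested, median -0.02), cytosolic ribosomal proteins (80, -0.06), the proteasome (40, -0.0023) and the lysosome (54, 0.03). The median log2 fold changes in 4 classes of genes by exonic length, from short to long, were -0.02, 0.00, 0.00 and -0.02.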

How the data were processed

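RNA of 15 libraries in 5 groups of 3 was sequenced. Per the labels' protocols, RNA was taken with TRIZOL and libraries followed a SMART-seq2 type of protocol. The authors deposited an expected count per transcript and library, not normalized, and the submitters' processing notes name cutadapt, RSEM and mm10. Their versions and settings, the annotation and the strand were not given in the sources used here. The table held 111462 transcript rows, of which 110115 were matched by identifier without version to GENCODE M21 (GRCm38) and summed to 34910 genes, rounded to whole numbers. The other 1347, with 0.595% to 0.650% of counts, and 1 blank row were left out. A deposited table of the authors' mixed model was not used.

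Genes passed filterByExpr at a minimum count of 10, were scaled with TMM and fitted in 1 model of the 5 groups with edgeR's robust quasi-likelihood method. All p-values come from edgeR, adjusted over all genes tested by the Benjamini-Hochberg method, and a gene was called under 0.05. The common dispersion gave a biological coefficient of variation of 0.158. SE is the absolute log2 fold change over the square root of F, and 2 was the prior count of log2 CPM. On simulated data for this comparison, with 14941 genes in that step, 73.5% of 98 genes changed 2-fold and 28.1% of 96 changed 1.5-fold were called, with 2 false calls. Apart from the changed genes, the simulation drew all libraries of a gene from the same mean and spread. No simulated library stood apart and the groups spread alike, unlike in the data. The shares recovered and the false calls therefore cannot be carried over to the real comparison.

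The comparison, the gene lists and the alternatives were chosen with earlier results of these data known. Lists are described by counts and medians, with no test. The text names up to 12 called genes per direction with the largest change, a mean log2 CPM of at least 3, non-overlapping groups and a symbol other than that of a predicted gene or clone. It also takes up to 4 called members of each list by p, and 18 genes whatever their result, of which only some are given, not by size. Pax6, Hes5, Dcx, Tubb3, Neurod1, Gfap, Cdkn1a, Cryab, Hist1h1c, Rab3b, Gsn and Mavs are not given, and none was called. Under 17 alternatives Cryab was called in 6, Hist1h1c in 4, Rab3b in 3, and Gsn and Mavs in none. Further list members were chosen after their values were seen. Promoter sequences come from a RefSeq table of GRCm38.p6. Tools were R 4.3.3, edgeR 4.0.16, limma 3.58.1, DESeq2 1.42.0, statmod 1.5.0, Python 3.11.15, pandas 2.3.3, numpy 2.4.6 and matplotlib 3.10.9.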

Additional observations from a re-analysis of the deposited data

How the results depend on the processing

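The 36 called genes (12 higher, 24 lower) kept their direction under every alternative in which they were tested, while the number of genes called moved. It was 48 (18 and 30) with RLE scaling, 21 (6 and 15) with library size only, 43 (12 and 31) with no filter, 34 (12 and 22) with at least 50 counts in 3 libraries and 34 (10 and 24) with protein-coding transcripts only. DESeq2 called 268 (135 and 133) and limma-voom with quality weights 1540 (777 and 763). The model of the 6 compared libraries called 1030 (581 and 449) and that without the 2 libraries that stand apart, added after the data were seen as far as the other contrasts are concerned, 568 (321 and 247). Leaving out each compared library in turn gave 0 to 61 calls, 0 to 10 higher and 0 to 51 lower, 0 without shLINE_Orf1+LINE-1 replicate 1 or 3 and 61 without shLINE_Orf2 replicate 3. In the model of the 6 libraries, where this was added after the data were seen, it gave 1362 (770 and 592), 270 (167 and 103) and 1042 (485 and 557) without replicates 1, 2 and 3 of shLINE_Orf2, and 294 (172 and 122), 306 (184 and 122) and 682 (345 and 337) without those of shLINE_Orf1+LINE-1. In those runs the group with a library left out had 2. Replicate numbers did not pair the libraries: same-numbered libraries of the 2 groups had correlations of their deviations of -0.0018, -0.030 and 0.0039. A fit with that number as a block called 18 genes (7 and 11), and in the model of the 6 libraries 902 (516 and 386). Without the 2 libraries that stand apart, the contrasts that share libraries moved from 0 to 24 for shLINE_Orf1 against shLINE_Orf2, from 21 to 353 for shLINE_Orf1+LINE-1 against shControl and from 29 to 272 for shLINE_Orf2 against shControl. Genes with log2 fold changes near 0 changed sign, with 1 library left out from -0.0055 to 0.046 in Olig2, -0.093 to 0.033 in Atf4, -0.066 to 0.033 in Hif1a and -0.30 to 0.21 in Mki67, which was at 0.043 with limma-voom. The cause of these changes was not tested. Depth and the number of libraries were not compared as limits of precision.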

Other observations

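The 12 called genes that the naming rule left out, chosen after their values were seen, were mostly of low level. Pdlim3, a protein of muscle Z-discs and actin fibres (chromosome 8, 45885461 to 45919548), had the smallest adjusted p of the comparison, at 0.748, 0.968 and 0.775 CPM in shLINE_Orf1+LINE-1 and 3.84, 3.22 and 2.47 CPM in shLINE_Orf2 (edgeR log2 fold change -1.93 ± 0.23, adjusted p = 0.00662). The other 9 libraries were at 1.93 to 3.24 CPM. Ppp1r3g, a regulator of glycogen synthesis, was at 0.534, 0.794 and 0.388 CPM against 4.42, 2.72 and 1.52 CPM (-2.32 ± 0.41, adjusted p = 0.0267). The homeobox gene Dlx3 was at 0.128, 0.0968 and 0.0215 CPM against 2.0, 0.804 and 0.665 CPM, with 0.373 to 1.02 CPM elsewhere. The retinal bHLH factor Atoh7 was at 0.0641 to 0.194 against 0.494 to 0.686 CPM. The other lower genes were the forkhead factor Foxo6 (-1.50 ± 0.27), the potassium channel Kcnk10 (-0.90 ± 0.16), Cdc42ep3 (-0.70 ± 0.13), the kinase Pak3 (-0.67 ± 0.11) and the lysophospholipase Enpp2 (-0.61 ± 0.10).

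Among the higher genes, Tex15, which acts with piRNA in silencing of transposons in male germ cells (chromosome 8, 33516738 to 33585582), was at 2.78, 2.50 and 2.26 CPM in shLINE_Orf1+LINE-1 and at 0.708, 0.724 and 0.935 CPM in shLINE_Orf2 (log2 fold change 1.67 ± 0.28, adjusted p = 0.0193). The other 9 libraries, at 1.52 to 3.47 CPM, were all above shLINE_Orf2. Its contrast of shLINE_Orf1+LINE-1 with shLINE_Orf1 was -0.02 ± 0.26 and that of shLINE_Orf2 with shControl -1.40. Ulbp1, a ligand of the natural killer receptor NKG2D, was at 8.05, 7.39 and 7.73 CPM against 3.52, 3.56 and 4.09 CPM (1.05 ± 0.17, adjusted p = 0.0193), and Lix1 rose by 0.66 ± 0.12 on the log2 scale.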
